A study of Mus musculus with 8 samples.

Results

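The 34 genes described here code for the steps of glucose breakdown in the cytosol and for the entry of its product into the mitochondrion. They comprise 4 transporters of glucose and lactate, 10 genes of upper glycolysis, 5 of lower glycolysis, 2 subunit genes of lactate dehydrogenase, 3 genes of the oxidative and 4 of the non-oxidative branch of the pentose phosphate pathway, and 6 genes that carry or commit pyruvate to mitochondrial oxidation. They were taken by symbol, written in capitals as in the table, from the 46625 genes of the count table, and all 34 have a row in it. RNA came from 8F10 T cells, which carry a T cell receptor against an insulin peptide. The donors were 8F10 mice lacking the T cell receptor alpha chain and marked by CD45.2, and their bone marrow stem cells, cleared of T and B cells, were transferred into irradiated hosts marked by CD45.1. The irradiation was not lethal, so the hosts could keep cells of their own. A first group of hosts were NOD mice, the strain that develops autoimmune diabetes. The second group were B16A mice, of NOD background, which make an insulin altered at 1 position of its B chain. The labels give the strain NOD/ShiLtJ for all samples. The inguinal lymph nodes, which lie away from the pancreas, were taken after 6 weeks and the 8F10 cells sorted out. Each group had 4 libraries, numbered by batch from 1 to 4, with 1 library of each host in a batch. The comparison asks whether T cells that lived in hosts with native insulin differ from those in hosts with the changed insulin.

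Glycolysis splits glucose into pyruvate and yields ATP and NADH without oxygen. Lactate dehydrogenase restores the oxidised cofactor by reducing pyruvate to lactate, which leaves the cell through monocarboxylate transporters. The pentose phosphate pathway branches off at glucose 6-phosphate and gives NADPH and ribose for nucleotides. Pyruvate that is to be burned passes the mitochondrial pyruvate carrier and is turned into acetyl-CoA by pyruvate dehydrogenase, which pyruvate dehydrogenase kinases switch off. Resting T cells rely mostly on mitochondrial oxidation, and T cells that respond to antigen raise glucose uptake and lactate output.

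Library totals ran from 4896593 to 6137666 counts in batches 1 to 3 and were 28301805 and 28094237 counts in batch 4. Markers of CD4 T cells were present in every library, with the 8 markers summing to 5157 to 15559 CPM (counts scaled to a common library size with edgeR's TMM factors) in NOD hosts and 4555 to 11838 CPM in B16A hosts. Markers of other cells were lower, and the hosts overlapped for each list. The 9 myeloid and dendritic markers summed to 45.5 to 241 CPM in NOD and 39.3 to 169.6 CPM in B16A hosts, the 6 stromal and endothelial markers to 285 to 378 and 270.1 to 415 CPM, the 5 NK markers to 29.4 to 64.2 and 31.6 to 42.2 CPM, and the 4 plasma cell markers to 26.6 to 48.1 and 23.3 to 55.0 CPM. The 2 CD8 genes summed to 65.3 to 186 and 71.7 to 123 CPM. The lists of B cells, neutrophils, erythroid cells and platelets each summed to under 21 CPM, and HBA-A2 and PDPN had no count in any library. Their part in the results below was not tested.

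How well these genes can be counted differs, because several of them have many near-identical copies in the mouse genome. The reads were 50 bases long, so each gene's longest coding transcript was divided into all its windows of that length and each window was looked up in the transcripts of every other annotated gene. For 13 of the 34 genes no window recurred elsewhere, for 5 up to 10% did, for 12 between 10% and 40% did, and for 4 more than 40% did. These 4 were GAPDH (82.5% of windows, in 222 other genes, of which 213 are annotated as pseudogenes), ENO1 (72.2%), PGK1 (68.0%) and PGAM1 (41.5%). One coding window each of GAPDH, ENO1 and LDHA is printed, the one found in most other genes, to show what a read from such a place looks like.
GAPDH, in 84 other genes: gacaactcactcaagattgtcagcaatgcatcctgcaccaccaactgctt
ENO1, in 5 other genes: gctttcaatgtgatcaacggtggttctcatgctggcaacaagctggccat
LDHA, in 5 other genes: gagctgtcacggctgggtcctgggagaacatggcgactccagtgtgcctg
A read of any of these sequences fits several places equally well, and the treatment of such reads in counting is not given in the sources used here. For GPI1 the 25.3% of shared windows recur in 122 other genes, of which 3 are pseudogenes. The measured level of GAPDH, the enzyme of the NADH-forming step, was 4.89 CPM per kilobase of exon as the mean of the 6 libraries of batches 1 to 3, against 65.2 for ALDOA, the muscle-type aldolase, and 32.2 for LDHA, a lactate dehydrogenase subunit. PGK1, which makes the first ATP of the pathway, stood at 1.04 CPM per kilobase and PGAM1, the mutase after it, at 0.694. The kilobases are those of all annotated exons of a gene joined, which exceed its longest coding transcript unequally. For MPC2 they were 7344 against 1025 bases, and for SLC16A1 4426 in both. Levels per kilobase and their ranks between genes therefore depend on the annotation. The 201 genes of the table that share a window with GAPDH summed to a mean of 126 CPM over the 8 libraries, while GAPDH itself ran from 9.48 to 28.7 CPM. For GAPDH, PGK1, PGAM1 and ENO1 the rank by level is therefore uncertain, and the part of shared windows in it was not tested. A similar limit holds for genes with fewer shared windows, whether or not their sharing genes were well counted. For PKM (34.4%), PDHB (30.3%) and LDHB (27.0%) the sharing genes summed to 0.125, 1.24 and 0.702 CPM. For RPE (19.1%) and PFKP (17.1%) the sharing gene averaged 26.5 and 45.9 CPM. For G6PDX (10.7%), MPC1 (29.6%) and GPI1 the sharing genes summed to 25.4, 4.64 and 3670 CPM.

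**Figure D1:**
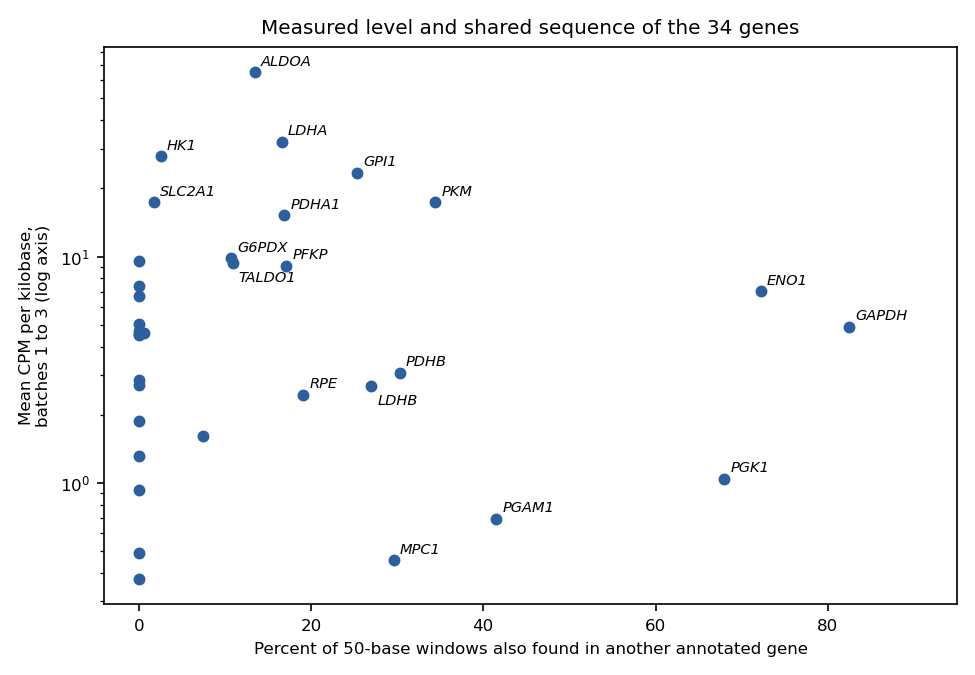
Mean CPM per kilobase of exon over the 6 libraries of batches 1 to 3 (vertical log axis) against the percent of a gene's 50-base windows that also occur in another annotated gene (horizontal axis), 1 point per gene, no error bars. GAPDH, ENO1 and PGK1 lie beyond 60% shared windows, and ALDOA at 65.2 CPM per kilobase is the highest point.

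No gene of the set passed the test between NOD and B16A hosts. The smallest p was that of PDHA1, the catalytic alpha subunit gene of pyruvate dehydrogenase, which was higher in the NOD library of every batch and had, with all 4 batches and batch as a term, the only unadjusted p under 0.05 in the set. Enolase (ENO1), transketolase (TKT), the pyruvate carrier subunit gene MPC2 and the hexokinase gene HK2 were also higher in the NOD library of all 4 batches, and no gene was lower in all 4. The edgeR quasi-likelihood test with batch as a term used 31 of the 34 genes, since ALDOC, PGAM1 and MPC1 fell under the filter on low counts. It called 0 of the 31 after adjustment over all 14607 tested genes, where it called 0% of all genes. At an unadjusted p under 0.05 stood 1 of the 31 (3.23%), against 5.87% of all tested genes. With batch 2 left out it was 4 of 30 (PKM, PDHA1, LDHA and ENO1, 13.3% against 4.14% of all genes), named after their values were seen, and with batch 4 left out 2 of 31 (PDHA1 and PFKL, 6.45% against 8.37%). Without the batch term it was 0 of 31, against 0.233% of all genes, and with DESeq2's size factors 2 (PDHA1 and ENO1, 6.45% against 5.99%). DESeq2 with batch as a term called 0 of the 31 and 0.144% of all genes, and limma voom with quality weights called 0 of the 31 and 0.0616% of all. Of the 31 tested genes 5 (16.1%) were higher in the NOD library of all 4 batches, against 7.43% of all tested genes, and 0 were lower in all 4, against 6.85%. No gene had all 4 NOD libraries above all 4 B16A libraries or all below, an arrangement found in 0.205% and 0.39% of all tested genes. Because these are bulk libraries, a lower value may stand for fewer cells of a type or less RNA per cell, which cannot be told apart.

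The direction of the set differed from batch to batch. The median log2 fold change, NOD over B16A, was 0.10 over the 31 genes, with 20 positive and 11 negative, against a median of 0.01 and 51.3% positive over all tested genes. Within batches 1 to 4 the median log2 ratio of the 31 genes was 0.04, -0.14, 0.17 and 0.41, and 17, 12, 19 and 21 of them were higher in the NOD library. Over all tested genes the corresponding medians were 0.00, 0.05, -0.03 and 0.00. With both batch 4 libraries left out the median of the 31 genes was -0.00, with 15 positive, and edgeR called 0 of them and 0.204% of all genes. The pair of batch 4 thus showed the highest median of the 4 pairs, and in 15 of the 31 genes (48.4%) it gave the highest ratio, against 27.6% of all tested genes.

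**Figure D2:**
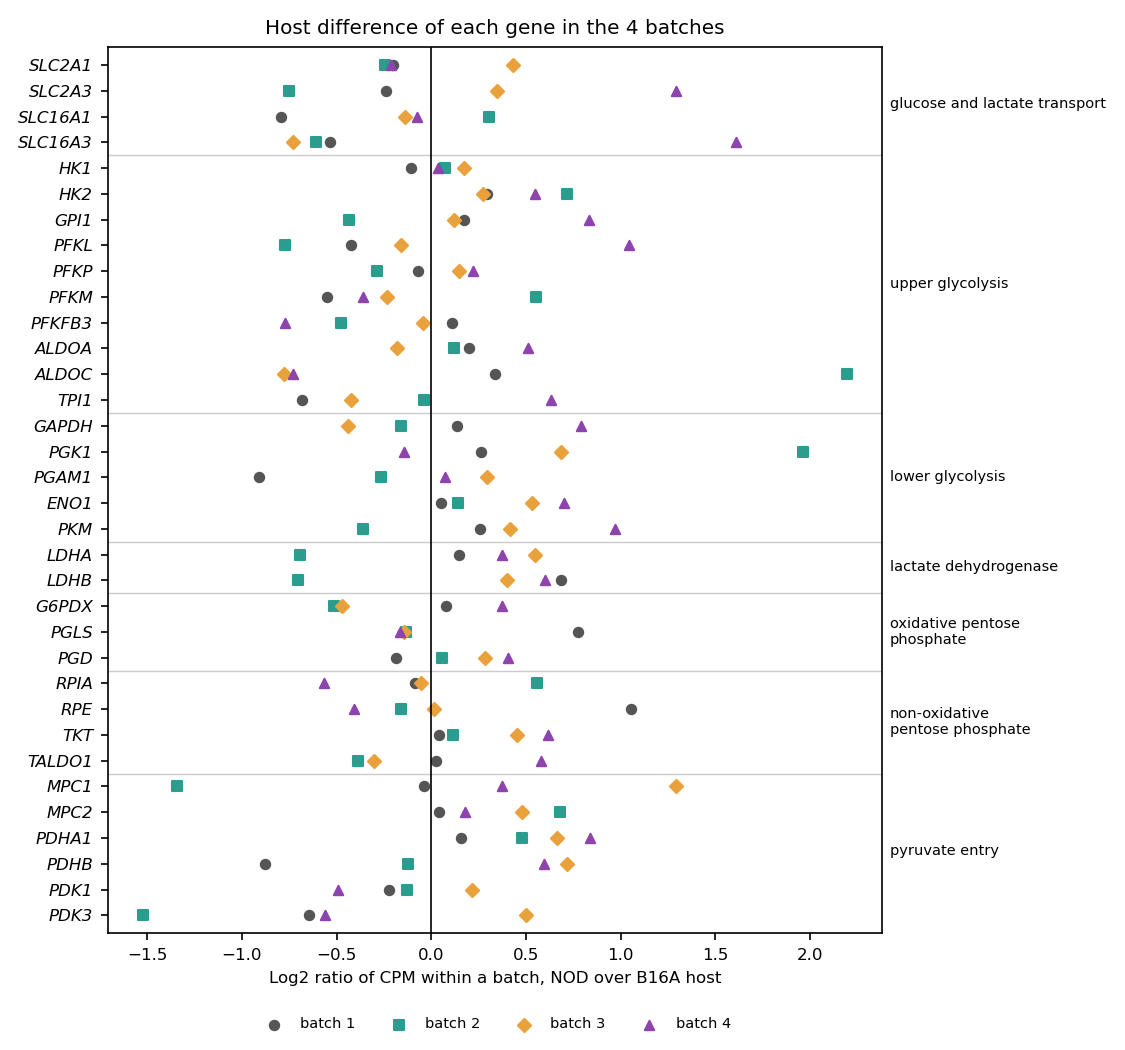
Host ratio of CPM (log2, NOD over B16A) within each batch for the 34 genes, grouped by role (1 marker per batch, each the ratio of 1 pair of libraries, so without error bars). HK2, ENO1, TKT, MPC2 and PDHA1 have all 4 markers right of 0, and no gene has all 4 left of it.

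Among the transporters, SLC2A1 (GLUT1), the main glucose carrier of T cells, stood close in both hosts. It measured 60.7, 50.5, 71.1 and 42.2 CPM in NOD hosts, batches 1 to 4, and 70.0, 59.8, 52.6 and 48.9 CPM in B16A hosts, so the groups overlapped. SLC2A3 (GLUT3), a high-affinity glucose carrier, measured 11.2, 12.3, 13.2 and 26.8 CPM in NOD and 13.2, 20.9, 10.4 and 10.8 CPM in B16A hosts. The NOD library of batch 4 was the highest of the 8. SLC16A1 (MCT1), a carrier of lactate and pyruvate, measured 3.96, 4.86, 7.19 and 51.4 CPM in NOD and 7.003, 3.90, 7.93 and 54.3 CPM in B16A hosts. It had the smallest p of the 4 transporters, with a log2 fold change of -0.18 ± 0.25 (SE, edgeR quasi-likelihood test, adjusted p = 0.972). That value came to -0.00 with batch 1 left out, to -0.29 with batch 2 left out and to -0.11 without the batch term. The hosts overlapped, and both batch 4 libraries were above the 6 others. SLC16A3 (MCT4), the lactate exporter of strongly glycolytic cells, was low throughout, at 3.10, 5.05, 3.43 and 1.17 CPM in NOD and 4.57, 7.80, 5.83 and 0.251 CPM in B16A hosts. Its NOD library was lower in batches 1 to 3 (log2 ratios -0.53, -0.61 and -0.73) and higher in batch 4 (1.61), where the counts were 26 and 6.

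In upper glycolysis, hexokinase traps glucose in the cell, phosphofructokinase commits it, and aldolase and triose phosphate isomerase deliver the 3-carbon sugars. HK1, the housekeeping hexokinase, measured 248, 205, 271 and 86.0 CPM in NOD and 267, 195, 241 and 84.0 CPM in B16A hosts. Its within-batch log2 ratios of -0.11, 0.07, 0.17 and 0.03 were the narrowest in range of the 34. HK2, the inducible hexokinase, was near the lower end of detection, at 1.72, 4.49, 1.80 and 1.43 CPM in NOD and 1.37, 2.65, 1.46 and 0.922 CPM in B16A hosts. The groups overlapped, although each NOD library was above its partner. The log2 fold change came to 0.52 ± 0.58 (SE, edgeR test, adjusted p = 0.961), from 10 to 32 counts in NOD and 9 to 22 counts in B16A libraries.

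The phosphofructokinase genes had mixed signs between batches. PFKP, the platelet-type subunit, measured 125, 106, 127 and 256 CPM in NOD and 131, 129.5, 115 and 219 CPM in B16A hosts. PFKL, the liver-type subunit, measured 24.4, 25.6, 26.5 and 54.5 CPM in NOD and 32.9, 43.8, 29.6 and 26.4 CPM in B16A hosts. The NOD library was the lower one for PFKL in batches 1 to 3 and the higher one in batch 4 (log2 ratios -0.43, -0.77, -0.16 and 1.04). With batch 4 left out the log2 fold change of PFKL was -0.45 ± 0.19 SE, which did not pass (edgeR, adjusted p = 0.489), and with all batches it was -0.06 ± 0.26 SE. PFKM, the muscle-type subunit, ran from 8.96 to 23.2 CPM in NOD and from 11.6 to 15.8 CPM in B16A hosts. PFKFB3 makes fructose 2,6-bisphosphate, the activator of phosphofructokinase. It had the smallest p of the upper steps, at 29.8, 35.5, 32.2 and 14.5 CPM in NOD and 27.6, 49.5, 33.2 and 24.9 CPM in B16A hosts, with a log2 fold change of -0.31 ± 0.20 (SE, edgeR quasi-likelihood test, adjusted p = 0.917). It was -0.14 with batch 4 left out and -0.15 with limma voom. The NOD library was lower in batches 2, 3 and 4 and higher in batch 1.

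GPI1, the isomerase after hexokinase, measured 168, 121, 160.2 and 214 CPM in NOD and 149, 164, 148 and 120.2 CPM in B16A hosts. ALDOA measured 205, 144, 224 and 771 CPM in NOD and 179, 132, 255 and 540.5 CPM in B16A hosts. For both genes the batch 4 pair had the highest NOD over B16A log2 ratio of the 4, at 0.83 and 0.51. ALDOC, the brain-type aldolase, ran from 0.624 to 3.55 CPM over the 8 libraries and was not tested. TPI1, the triose phosphate isomerase gene, ran from 2.12 to 18.02 CPM in NOD and from 2.91 to 11.6 CPM in B16A hosts, and its NOD library was lower in batches 1 to 3 and higher in batch 4.

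Lower glycolysis turns the 3-carbon sugars into pyruvate and yields the ATP. ENO1, on chromosome 4 (150236721 to 150248879, mm10), measured 39.9, 34.2, 49.5 and 96.2 CPM in NOD and 38.5, 31.1, 34.1 and 59.2 CPM in B16A hosts. Every NOD library was above its partner, by log2 ratios of 0.05, 0.14, 0.53 and 0.70, while the groups as a whole overlapped. The log2 fold change came to 0.37 ± 0.17 (SE, edgeR test, unadjusted p = 0.0517, adjusted p = 0.848). With batch 4 left out it was 0.25. PKM, pyruvate kinase, measured 96.5, 75.9, 96.9 and 459 CPM in NOD and 80.8, 97.7, 72.5 and 234 CPM in B16A hosts. Its NOD library was higher in batches 1, 3 and 4 and lower in batch 2, with log2 ratios of 0.26, 0.42, 0.97 and -0.36 in that order. GAPDH, at 28.7, 20.8, 9.48 and 23.3 CPM in NOD and 26.2, 23.2, 12.9 and 13.4 CPM in B16A hosts, was split evenly, with 2 batches in each direction. PGK1 rested on 4 to 23 counts per library in batches 1 to 3 and on 162 and 192 counts in batch 4, with log2 ratios of 0.26, 1.96, 0.68 and -0.14 in batches 1 to 4. PGAM1 had 4 to 16 counts per library and was not tested. For GAPDH, PGK1, PGAM1 and ENO1 the shared windows described above apply to each of these values.

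The subunit genes of lactate dehydrogenase had the same sign as each other in every batch. LDHA, the subunit of the lactate-forming enzyme, measured 112, 70.7, 143 and 527 CPM in NOD and 101, 114, 97.7 and 406 CPM in B16A hosts. LDHB, the heart-type subunit, measured 3.79, 3.18, 6.05 and 38.3 CPM in NOD and 2.28, 5.31, 4.53 and 25.2 CPM in B16A hosts. Both were higher in the NOD library in batches 1, 3 and 4 and lower in batch 2. LDHB had the smaller p, with a log2 fold change of 0.29 ± 0.32 (SE, edgeR quasi-likelihood test, adjusted p = 0.961). It ran from 0.13 with batch 4 left out, and 0.16 with batch 1 left out, to 0.58 with batch 2 left out, and was 0.44 with limma voom and 0.46 without the batch term. In the plot of host ratios the batch 2 markers of both genes lie near -0.7 and the other 3 right of 0.

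The oxidative branch of the pentose phosphate pathway, which makes NADPH, was mixed in direction between the batches. G6PDX, its first enzyme, measured 31.3, 25.6, 24.2 and 50.1 CPM in NOD and 29.7, 36.7, 33.7 and 38.7 CPM in B16A hosts. Its log2 ratios in batches 1 to 4 were 0.08, -0.51, -0.47 and 0.37. PGLS, the lactonase, ran from 19.4 to 36.8 CPM in NOD and from 21.4 to 29.6 CPM in B16A hosts, with log2 ratios of 0.77, -0.14, -0.15 and -0.16. PGD, the second NADPH-forming enzyme, measured 40.6, 58.5, 46.7 and 38.6 CPM in NOD and 46.3, 56.3, 38.3 and 29.1 CPM in B16A hosts, with a log2 fold change of 0.14 ± 0.17 (SE, edgeR quasi-likelihood test, adjusted p = 0.962). The value for PGD was 0.05 with batch 4 left out, 0.24 with batch 1 left out and 0.07 with limma voom. The host ranges of these 3 genes overlapped.

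In the non-oxidative branch, which links pentoses back to glycolysis, the transketolase gene TKT had the smallest p. TKT, on chromosome 14 (30548359 to 30574720), measured 76.1, 68.1, 82.4 and 83.3 CPM in NOD and 74.0, 62.9, 60.0 and 54.3 CPM in B16A hosts, 77.5 ± 7.04 against 62.8 ± 8.27 CPM (SD, n = 4 each). Each NOD library was above its partner, by log2 ratios of 0.04, 0.11, 0.46 and 0.62, and the groups overlapped. The log2 fold change came to 0.31 ± 0.16 (SE, edgeR test, unadjusted p = 0.0674, adjusted p = 0.875), and 0.21 with batch 4 left out. No 50-base window of TKT recurred in another annotated gene. RPIA, the ribose phosphate isomerase, ran from 10.3 to 32.7 CPM in NOD and from 13.4 to 33.98 CPM in B16A hosts, and RPE, the epimerase, from 5.56 to 27.6 and from 5.50 to 36.6 CPM. TALDO1, transaldolase, measured 18.8, 17.4, 19.8 and 327 CPM in NOD and 18.4, 22.8, 24.4 and 219 CPM in B16A hosts. It was level between the hosts in batch 1, lower in the NOD library in batches 2 and 3 and higher in batch 4 (log2 ratios 0.03, -0.39, -0.30 and 0.58).

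At the entry of pyruvate into the mitochondrion, PDHA1 had the smallest p of the set. The gene lies on the X chromosome (160122209 to 160138413). It measured 69.4, 49.7, 76.2 and 179 CPM in NOD and 62.3, 35.6, 48.1 and 99.98 CPM in B16A hosts. Every NOD library exceeded its partner, by log2 ratios of 0.16, 0.48, 0.66 and 0.84, and the groups as a whole overlapped. The log2 fold change came to 0.54 ± 0.16 (SE, edgeR test, unadjusted p = 0.00396, adjusted p = 0.683). Without the batch term it was 0.61 with an unadjusted p of 0.243 in edgeR. When batch 4 was left out it came to 0.43 ± 0.17 (SE, edgeR test, adjusted p = 0.411). DESeq2 with batch as a term gave an adjusted p of 0.125 and limma voom with quality weights 0.382. Of the 50-base windows of PDHA1 16.9% recur in 2 other genes, which together averaged 3.35 CPM.

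The other genes of pyruvate entry were mixed. MPC2, a subunit of the pyruvate carrier on chromosome 1 (165460637 to 165481214), measured 22.7, 21.9, 26.0 and 68.3 CPM in NOD and 22.1, 13.6, 18.6 and 60.2 CPM in B16A hosts. It was above its partner in each batch, with a log2 fold change of 0.34 ± 0.19 (SE, edgeR quasi-likelihood test, unadjusted p = 0.0920, adjusted p = 0.887). Its partner subunit gene MPC1 had 2 to 9 counts per library in batches 1 to 3 and 271 and 223 counts in batch 4, and was not tested. PDHB, the beta subunit gene of pyruvate dehydrogenase, measured 8.78, 7.85, 18.5 and 95.1 CPM in NOD and 16.3, 8.58, 11.2 and 62.9 CPM in B16A hosts. It was lower in the NOD library in batches 1 and 2 (log2 ratios -0.88 and -0.13) and higher in batches 3 and 4 (0.72 and 0.60). The kinase genes that restrain the enzyme were lower in the NOD library in batches 1, 2 and 4 and higher in batch 3. PDK1 measured 42.2, 32.5, 39.9 and 46.1 CPM in NOD and 49.3, 35.6, 34.3 and 65.0 CPM in B16A hosts, and PDK3 ran from 2.80 to 10.1 and from 7.12 to 12.1 CPM. Neither kinase gene had an unadjusted p under 0.05 (edgeR).

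**Figure D3:**
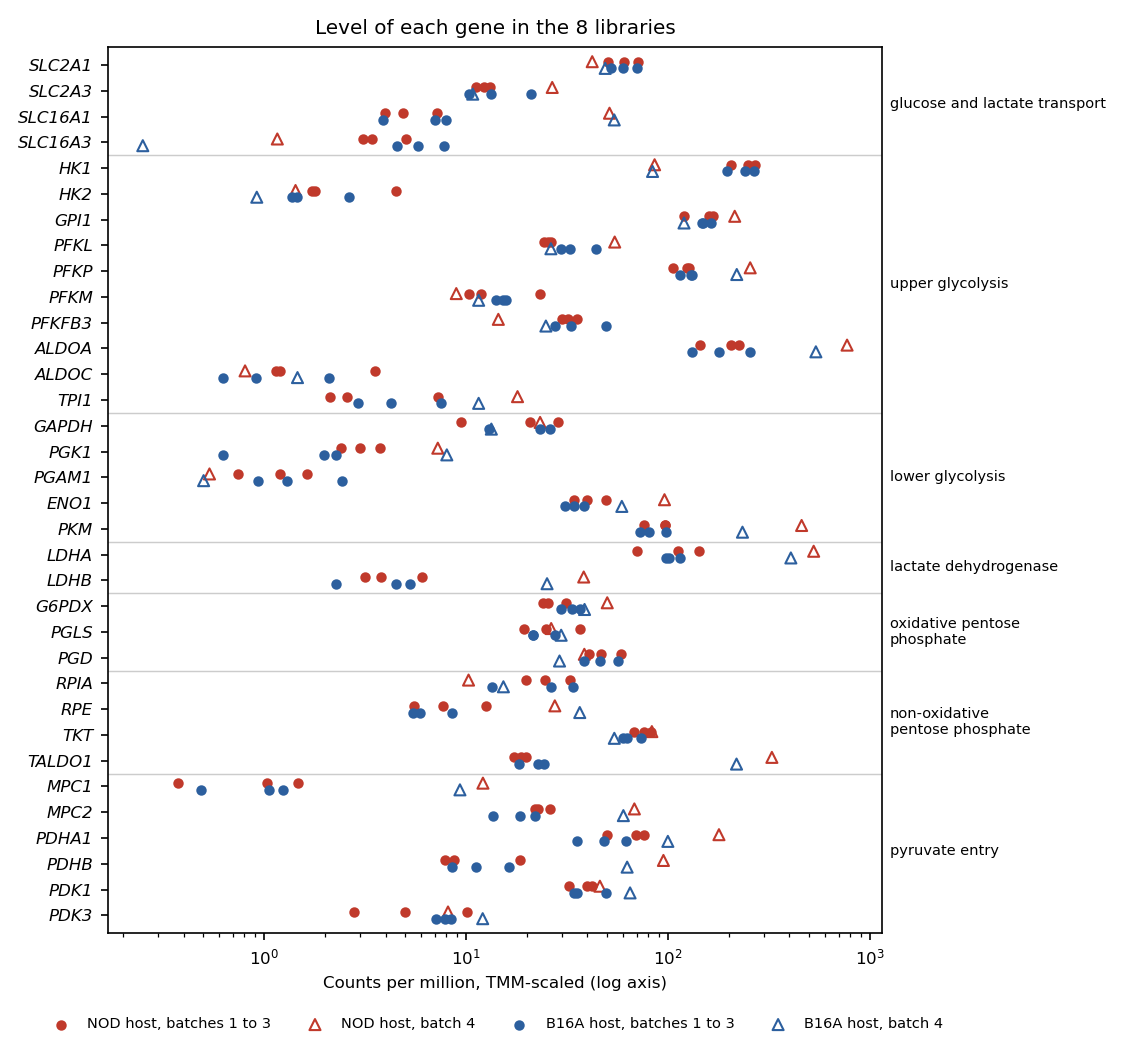
CPM of the 34 genes in the 8 libraries on a log axis, grouped by role (red NOD host, blue B16A host, filled circles batches 1 to 3, open triangles batch 4, 1 marker per library, no error bars). The red and blue markers overlap in every row, and the triangles lie to the right in rows such as TALDO1, SLC16A1 and LDHB and to the left in HK1 and SLC16A3.

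Ratios of 2 related genes inside a library do not depend on the scaling of that library, apart from the prior count of 2 added before logs. In all, 9 such ratios were taken. The prior weighs most where counts are low, and with a prior of 0.5 the mean difference of SLC16A1 to SLC16A3 was -0.20. The ratio of HK1 to HK2 was lower in the NOD library of every batch, by 0.40, 0.65, 0.10 and 0.51 on the log2 scale (-0.41 ± 0.23, mean ± SD of 4 pairs), a difference that rests on the few counts of HK2. LDHA to LDHB differed by -0.15 ± 0.30 and PFKL to PFKP by -0.08 ± 0.61, both less than the spread between pairs. The same held for SLC2A1 to SLC2A3 (-0.22 ± 0.88), SLC16A1 to SLC16A3 (-0.11 ± 1.16), PFKM to PFKP (-0.15 ± 0.67), ALDOA to ALDOC (-0.09 ± 1.44), PDK1 to PDK3 (0.40 ± 0.72) and MPC1 to MPC2 (-0.27 ± 1.23). Of the 9 ratios that of the lactate carriers set batch 4 apart most widely. SLC16A1 to SLC16A3 had a log2 ratio between -0.97 and 1.03 in the 6 libraries of batches 1 to 3 and of 5.25 and 6.93 in the NOD and B16A libraries of batch 4.

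**Figure D4:**
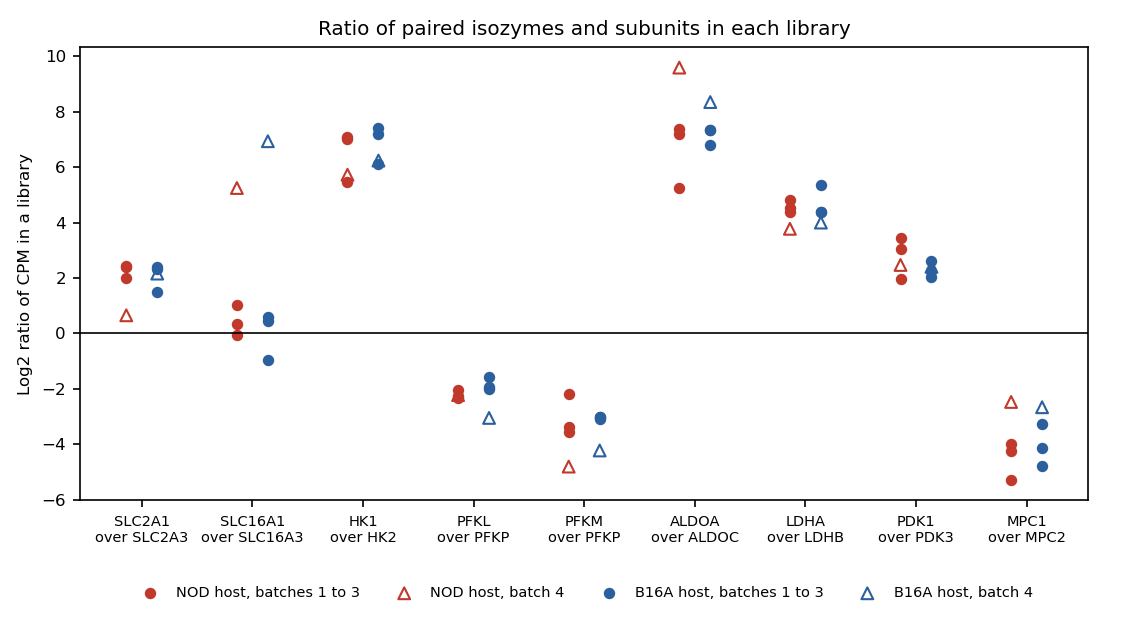
Log2 ratio of the CPM of 2 related genes in each library (red NOD host, blue B16A host, filled circles batches 1 to 3, open triangles batch 4, 1 marker per library, no error bars). The batch 4 libraries stand at 5.25 and 6.93 for SLC16A1 over SLC16A3, against at most 1.03 in the other 6.

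Batch 4 lay apart from the other batches for many of the genes. In it both libraries lay above the 6 others for 16 of the 34 genes and below them for 5, SLC2A1, SLC16A3, HK1, PFKFB3 and PGAM1. Among the 31 tested genes these were 15 (48.4%) and 4 (12.9%), against 31.8% and 40.4% of all tested genes. The batch is no condition of the study and its 2 libraries come from 1 batch, so the values are a description. TALDO1 was 13.5-fold higher in the mean of batch 4 than in that of batches 1 to 3, MPC1 11.4-fold, SLC16A1 9.10-fold, LDHB 7.59-fold, PDHB 6.66-fold, LDHA 4.38-fold, RPE 4.204-fold, PKM 4.00-fold and ALDOA 3.46-fold. TPI1, PGK1, MPC2, PDHA1, ENO1, PFKP and G6PDX were 1.47-fold to 3.33-fold higher. HK1 was 2.80-fold lower in batch 4 and SLC16A3 7.01-fold lower. HK1 held rank 3 in CPM per kilobase of exon in batches 1 to 3, at 27.9, and rank 15 in batch 4, at 9.96, and TALDO1 went from 9.33 to 126 CPM per kilobase. ALDOA and LDHA headed the order in both sets, at 65.2 and 32.2 in batches 1 to 3 and 225 and 141 in batch 4.

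Other measures differed in batch 4 as well. CD69, an early activation marker, was counted at 4781 and 3734 CPM in the NOD and B16A libraries of batch 4 and between 88.2 and 357 CPM in the other 6. For ACTB, the beta-actin gene, the values were 113917 and 98066 CPM in batch 4 and 7081 to 15128 CPM in the other 6. The 9 myeloid and dendritic markers summed to 139.8 to 241 CPM in batches 1 to 3 and to 45.5 and 39.3 CPM in batch 4. For the 6 stromal and endothelial markers the sums were 334 to 415 CPM and, in batch 4, 285 and 270 CPM. The 8 CD4 T cell markers were higher in batch 4, at 15559 and 11838 CPM in the NOD and B16A libraries against 4555 to 9049 CPM in the other 6. Genes with at least 1 count numbered 19751 and 20723 in batch 4 and 29729 to 33175 in the other libraries. Their part in the levels of the glycolytic genes was not tested.

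**Figure D5:**
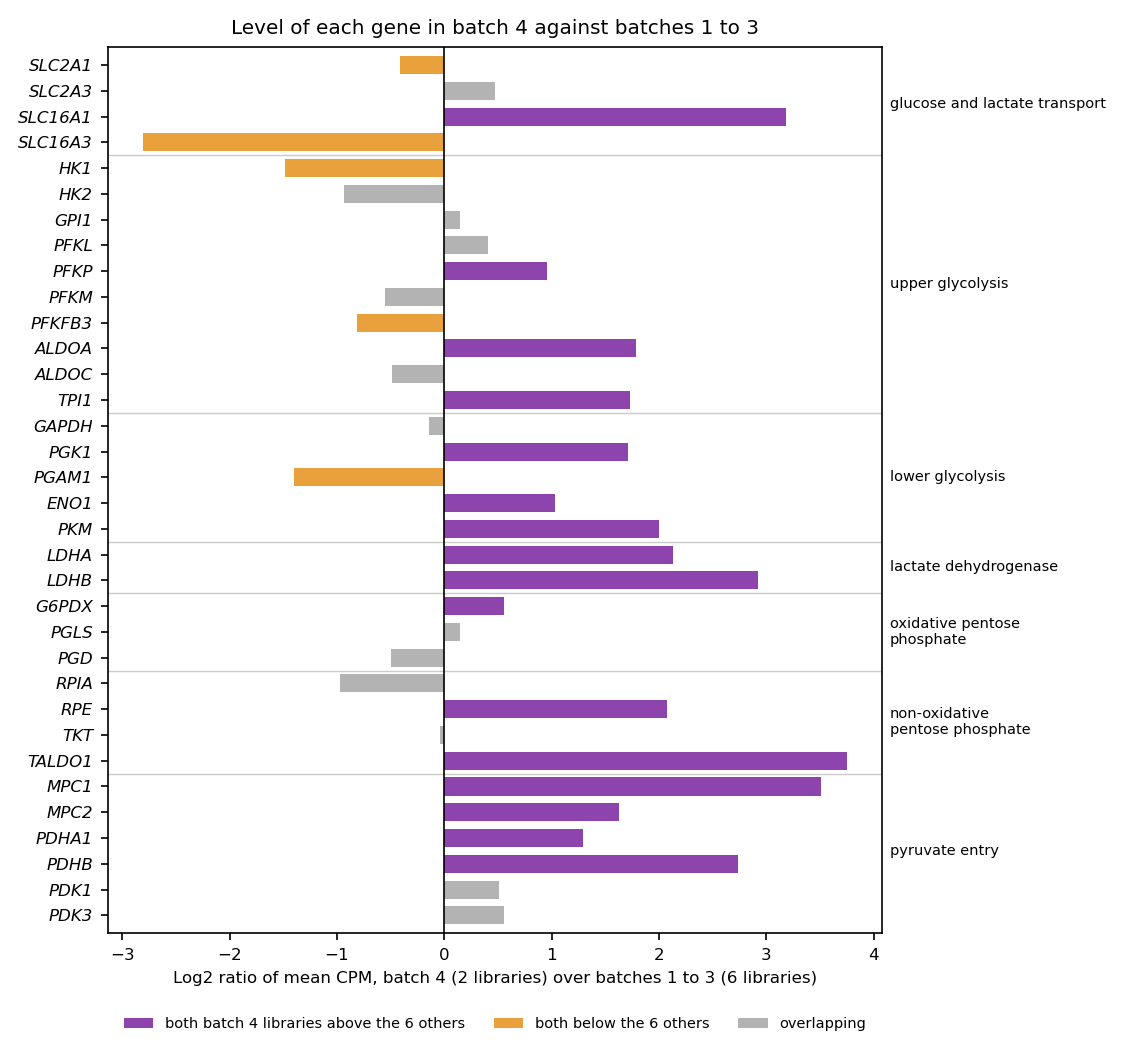
Log2 ratio of the mean CPM of the 2 batch 4 libraries over the mean of the 6 libraries of batches 1 to 3, 1 bar per gene, grouped by role (no error bars; purple, both batch 4 libraries above the 6 others; orange, both below; grey, overlapping). Purple bars number 16, orange 5 and grey 13.

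Promoter sequences are shown for 4 genes that differ in this respect: LDHA and SLC16A1, which make and carry lactate and were higher in batch 4, HK1, which was lower, and PDHA1, the gene with the smallest p between hosts. The sequences are the 250 bases before the start in RefSeq's GRCm38.p6, the assembly that mm10 denotes, 5′ to 3′ on the gene's strand. Capitals mark ACGTG and GCGTG, the core letters of the hypoxia response element, and CACGTG, the E-box bound by Myc and Max, each on either strand, and every CACGTG also holds ACGTG on both strands.
LDHA, chr7:46845554-46845803, plus strand: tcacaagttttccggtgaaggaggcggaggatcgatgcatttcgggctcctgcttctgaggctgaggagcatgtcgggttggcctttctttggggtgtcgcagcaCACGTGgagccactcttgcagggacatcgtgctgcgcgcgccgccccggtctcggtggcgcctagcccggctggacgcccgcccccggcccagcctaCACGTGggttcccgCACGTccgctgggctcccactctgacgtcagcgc
SLC16A1, chr3:104638414-104638663, plus strand: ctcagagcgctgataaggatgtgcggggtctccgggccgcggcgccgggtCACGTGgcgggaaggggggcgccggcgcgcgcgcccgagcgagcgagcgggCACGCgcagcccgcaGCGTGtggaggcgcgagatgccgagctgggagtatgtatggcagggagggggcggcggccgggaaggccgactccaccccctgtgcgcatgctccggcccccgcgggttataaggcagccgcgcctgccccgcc
HK1, chr10:62379909-62380158, minus strand: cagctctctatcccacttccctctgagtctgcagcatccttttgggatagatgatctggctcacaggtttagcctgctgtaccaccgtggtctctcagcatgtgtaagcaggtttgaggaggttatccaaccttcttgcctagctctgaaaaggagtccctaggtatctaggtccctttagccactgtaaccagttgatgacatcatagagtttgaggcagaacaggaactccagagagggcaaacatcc
PDHA1, chrX:160138431-160138680, minus strand: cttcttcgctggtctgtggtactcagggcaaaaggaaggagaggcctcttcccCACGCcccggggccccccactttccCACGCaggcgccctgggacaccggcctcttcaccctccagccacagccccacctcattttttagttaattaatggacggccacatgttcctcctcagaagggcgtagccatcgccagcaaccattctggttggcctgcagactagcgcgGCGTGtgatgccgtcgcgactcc
The LDHA window holds CACGTG at 2 places and a further ACGTG. SLC16A1 has CACGTG once and GCGTG at 2 places, PDHA1 has GCGTG at 3 places, and the HK1 window holds none of these letters. Each window lies before the start taken for its gene, and letters before any other start are not shown. The LDHA window lies inside the annotated gene, and the HK1 window directly upstream of the annotated HK1 gene. Which starts these T cells used was not tested, so a window without the letters does not show that the promoter in use lacks them. The printed windows do not stand for the other genes. SLC2A1, SLC16A3, PFKFB3 and PGAM1, which like HK1 lay below the rest in batch 4, each hold ACGTG. Of the genes above, SLC16A1, PGK1, LDHA and PDHB hold ACGTG, and ALDOA, TPI1, PKM and RPE hold none of these letters. The rest of those above hold GCGTG only. A link between letters and levels was not tested. A promoter was matched for 33 of the 34 genes. ACGTG occurred in 11 of them (33.3%), against 16.6% of 27025 promoters of the same length, GCGTG in 21 (63.6%, against 28.2%) and CACGTG in 3 (9.09%, against 6.05%). The 27025 promoters were not matched to the set in base composition or expression, so the shares do not show an enrichment particular to these genes. The counts describe letters in these windows and not binding.

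The wider pathway gave no call between hosts either. Of 55 other genes of the same steps, among them further isozymes, carriers and the remaining subunits of pyruvate dehydrogenase, 38 were tested. Of these, 19 had a positive and 19 a negative log2 fold change, and 0 passed. An unadjusted p under 0.05 (edgeR) was found for 3 of the 38, against 5.87% of all tested genes. SLC16A7 (MCT2), a high-affinity monocarboxylate carrier, was low, at 1.72, 5.80, 3.43 and 1.39 CPM in NOD and 0.457, 1.09, 1.94 and 0.0419 CPM in B16A hosts, with a log2 fold change of 2.25 ± 0.74 (SE, edgeR quasi-likelihood test, adjusted p = 0.740). BSG, the chaperone that brings MCT1 and MCT4 to the membrane, measured 84.0, 70.9, 86.0 and 58.1 CPM in NOD and 57.5, 59.8, 52.4 and 59.0 CPM in B16A hosts, with a log2 fold change of 0.37 ± 0.16 (SE, edgeR quasi-likelihood test, adjusted p = 0.844). SLC16A7 was above its partner in 4 batches and BSG in 3, and the lowest SLC16A7 value stands for 1 count.

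Of 24 regulators of glycolytic transcription and their known targets 21 were tested, 11 positive and 10 negative, and 0 passed. Of the 21, 3 had an unadjusted p under 0.05 (edgeR), against 5.87% of all tested genes. HIF1AN, the hydroxylase that restrains the hypoxia factor HIF-1, measured 25.3, 27.7, 32.5 and 67.9 CPM in NOD and 22.5, 17.6, 17.3 and 40.4 CPM in B16A hosts, with a log2 fold change of 0.62 ± 0.19 (SE, edgeR quasi-likelihood test, adjusted p = 0.683). ESRRA, a nuclear receptor of energy metabolism, measured 6.20, 3.93, 2.94 and 2.11 CPM in NOD and 7.31, 11.7, 6.15 and 5.70 CPM in hosts of the B16A kind (log2 fold change -1.08 ± 0.42 SE, adjusted p in edgeR = 0.795). HIF1AN was above and ESRRA below its partner in every batch. Among 19 T cell activation genes 17 were tested, 8 positive and 9 negative, and 0 passed. In this list, chosen with earlier results of these data known, 4 of the 17 had an unadjusted p under 0.05 (edgeR). The share over all tested genes was 5.87%. NR4A3, an immediate early gene of T cell receptor signalling, measured 41.6, 16.5, 9.15 and 57.2 CPM in NOD and 46.7, 31.7, 24.6 and 90.05 CPM in B16A hosts and was below its partner in each batch (log2 fold change -0.76 ± 0.21 SE, adjusted p in edgeR = 0.683), while its relative NR4A2, above its partner in 3 batches, had a log2 fold change of 0.96 ± 0.40 (SE, edgeR quasi-likelihood test, adjusted p = 0.828). Between hosts, the log2 fold change of CD69 was 0.05 ± 0.15 and that of ACTB 0.17 ± 0.20 (SE, edgeR test, adjusted p = 0.996 and 0.963).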

How the data were processed

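RNA of 8 samples of sorted mouse T cells was measured, 4 from each host. Per the labels' protocols, total RNA was amplified to cDNA with the SeqPlex kit, index tags were added in 12 cycles and single reads of 50 bases were sequenced. The authors deposited whole-number counts of reads for each gene, with no normalization. The submitters' processing notes name STAR, HTSeq, DESeq2 and the build mm10. Not given in the sources used here are versions, annotation, use of strand and the treatment of reads with several matches.

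The test was that of edgeR 4.0.16 under R 4.3.3 (quasi-likelihood, robust, filterByExpr, TMM) with batch as a term, since the samples are compared in pairs by batch number. The filter left 14607 of 46625 genes, p-values were adjusted over all of them by Benjamini-Hochberg, and the threshold was 0.05. CPM are scaled by TMM, with a prior count of 2 where logs were taken. Standard errors derive from the F statistic. Alternatives were no batch term, other scaling and filters, DESeq2 1.42.0, limma 3.58.1 voom, and each batch left out.

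Samples are paired by the batch that the labels give. Deviations from the group means correlated across genes at r = 0.625, 0.702, 0.611 and 0.906 between the libraries of batches 1 to 4. Between libraries of different batches among 1 to 3 it was 0.465 to 0.741, and NOD of batch 2 correlated best with B16A of batch 3 (0.741), so the correlations set apart only batch 4 and the pairing rests on the labels. The closest pair of libraries differed by a chi-square of 8.79 per degree of freedom. Whether each sample had its own animal is not in the labels. The p-values then measure only how far the samples spread, which may be technical. Members and lists were chosen with earlier results of these data known. A fold change is given for the gene with the smallest p of each of the 7 roles, for those with an unadjusted p under 0.05 and for those with 1 direction in all batches. Of the other lists the 2 genes with the smallest p are named, with CD69 and ACTB. The fold change of PFKL was chosen after its values were seen. Positions, exon lengths and windows come from GENCODE vM21 on GRCm38, where all 34 symbols matched; ALDOA has more than 1 gene record there, and the one that overlaps RefSeq's was used. One further window sequence is not reported here.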

Additional observations from a re-analysis of the deposited data

Results flagged for a closer look

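In a group of 4 libraries, 1 library was far from the other 3 in 23 of the 68 combinations of gene and host, by a gap above Dixon's critical value for 4 samples. Chance gives about 1 such case in 20 groups, but the share of such cases over all tested genes was not taken. Both batch 4 libraries lay above the 6 others in 31.8% of all tested genes and below them in 40.4%. The count can therefore not be read as particular to these genes. In 21 of the 23 the library set apart was that of batch 4, always the highest. These cases are not independent, since they come from the same 2 libraries. The values below are CPM. In NOD hosts the batch 4 library was high for SLC2A3 (26.8), SLC16A1 (51.4), PFKL (54.5), PFKP (256), ALDOA (771), PKM (459), LDHA (527), LDHB (38.3), TALDO1 (327), MPC1 (12.1), MPC2 (68.3) and PDHB (95.1). In B16A hosts it was high for SLC16A1 (54.3), PFKP (219), PKM (234), LDHA (406), LDHB (25.2), RPE (36.6), TALDO1 (219), MPC1 (9.34) and PDHB (62.9). The remaining 2 cases were the NOD library of batch 2, high for HK2 (4.49, against 1.43 to 1.80 in the other 3) and ALDOC (3.55, against 0.807 to 1.20), which rest on 24 and 19 counts.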

How the results depend on the processing

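In all 11 alternatives, 0 members passed the threshold, and the number of members with a positive log2 fold change stayed between 15 and 22. The 9 genes given a fold change by rule kept their direction (98 comparisons, as HK2 was not tested with batch 2 left out). This is no independent support, since every alternative used the same libraries. For HK2, ENO1, TKT, MPC2 and PDHA1, higher in the NOD library of all 4 batches, the direction was nearly fixed by how they were chosen. SLC16A1 came to -0.00 with batch 1 left out. The count over all genes, 0 as reported, was 14 without a filter on low counts, 21 with DESeq2 and 9 with limma voom, and ran from 0 to 32 with each batch left out in turn (32 with batch 4 left out, 0 with each of the others). The median log2 fold change of the members was 0.17 with batch 2 left out, 0.08 with batch 1, 0.12 with batch 3 and -0.00 with batch 4 left out. Without the replicate block the median was 0.12, 20 members were positive and 0 passed. The block changed the unadjusted p strongly, with 34 of all genes under 0.05 without it and 857 with it (edgeR). It changed no call, since both fits called 0 of all genes after adjustment. The fold change of PDHA1 ran from 0.43 to 0.66 over the alternatives, with edgeR, DESeq2 or limma adjusted p from 0.125 to 0.9999. With counts scaled to raw totals, 8 tested members in place of 4 lay below the rest in batch 4, and with DESeq2's size factors 6. Above the rest lay 14 in place of 15 with either scaling. The shares over all genes were taken with TMM scaling only. The cause of these shifts was not tested. MPC1, PGAM1 and ALDOC passed only looser filters, and counts under about 20 per library limit HK2, PGK1 and MPC1.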
